A study of Homo sapiens with 12 samples.

Results

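A set of 10 contractile genes was followed through human blood cell formation in culture: the 3 alpha actins ACTA2, ACTA1 and ACTC1, the actin-binding genes TAGLN and CNN1, the myosin light chain gene MYL9, the tropomyosins TPM1 and TPM2, and the non-muscle myosin heavy chains MYH9 and MYH10. They were taken by symbol as a named set of smooth and cardiac muscle genes, 10 of the 56593 symbols in the expression table, and each stood on a single line. The name fits the set only in part, since ACTA1 encodes the actin of skeletal muscle and MYH9 and MYH10 serve nearly every cell. RNA-seq of 4 populations of the human embryonic stem cell line H1 was used, with 3 libraries each: undifferentiated H1 cells, APLNR+ cells at day 2, CD31+CD34+ cells at day 5 and CD43+ cells at day 8. Per the sample labels, differentiation began with activin A at 40 ng/ml and BMP4 at 50 ng/ml up to day 2 and went on with VEGF at 40 ng/ml and bFGF at 50 ng/ml up to day 8, while the study's methods give the doses of activin A and BMP4 the other way round. APLNR is an apelin receptor found on early mesoderm, CD31 and CD34 together mark cells with endothelial and blood-forming potential, and CD43 marks blood progenitors. All libraries come from a single cell line, and nothing in the labels says whether the 3 libraries of a population came from separate cultures, so the p-values measure the spread between these libraries.

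Contraction in every animal cell rests on filaments of actin that are pulled by myosin II. In smooth muscle, myosin light chain kinase phosphorylates the regulatory light chain, and calponin, transgelin and tropomyosin bind along the actin filament, whereas striated muscle adds troponin and a sarcomere. Many of these genes are controlled by serum response factor (SRF), which binds a short DNA element called the CArG box, and several of them are also expressed outside muscle.

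Expression was given as FPKM, a level that is corrected for gene length and for the number of mapped fragments. The summed FPKM ranged from 567793 to 1564450 per library, and 12313 to 13084 entries reached 1 FPKM. Absolute depth is unknown. Relative depth, read from the most frequent ratio of low values, was lowest in replicate 1 of each population, from 0.555 in CD31+CD34+ to 0.749 in APLNR+, with CD43+ replicate 3 set to 1, whereas the other libraries lay between 1 and 1.27. Sort markers rose at the population named for them, but not all were highest there. APLNR averaged 0.528 FPKM in H1 and 383 in APLNR+ cells, and stayed at 403 in CD31+CD34+ cells. PECAM1, the gene of CD31, went from an average of 0.0997 in APLNR+ to 55.2 in CD31+CD34+ cells, and on to 95.9 in CD43+ cells. SPN, the gene of CD43, averaged 3.70 in CD31+CD34+ and 75.5 in CD43+ cells. CD34 was not among the markers read. PTPRC, which encodes the pan-leukocyte protein CD45, stayed at a mean of at most 0.197 FPKM in all 4 populations. In bulk RNA, fewer cells of a type and less RNA per cell cannot be told apart.

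The 3 alpha actins are compared first, because near-identical genes could share reads and because they took 3 different courses here. Their coding sequences are each 1134 bases long, and in GENCODE release 29 ACTA2 matched ACTA1 at 84.6% and ACTC1 at 85.5% of the positions, while ACTA1 matched ACTC1 at 85.6%. The longest identical run was 29 bases between ACTA2 and ACTA1, and 35 bases in each of the other 2 pairs. Of the 50-base stretches in their annotated exons, none of ACTA2, 1.81% of ACTA1 and 0.274% of ACTC1 occurred in another gene, for ACTA1 mainly in the POTE family of actin-like fusion genes. Among the other members, the share was 1.20% for TPM1 and 0.593% for MYH9, whose shared stretches lie in the smooth muscle myosin gene MYH11, and 0 for TAGLN, CNN1, MYL9, TPM2 and MYH10.

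Promoters from RefSeq (GRCh38.p14), 250 bases before to 50 bases after a start site, were at hand for 8 of the 10 members, with 12 start sites. TAGLN and MYL9 were not matched. The promoters at hand were searched on both strands for the CArG box in its strict form, CC, then 6 letters that are each A or T, then GG. Stretches that differ from it by 1 of its 6 inner letters were searched too. ACTA1 held a CArG box with its first base 97 bases before the start, and ACTC1 held one 109 bases before the most upstream of its start sites. Neither a box nor a stretch 1 letter off stood at the other start sites of ACTC1 or at the upstream one of ACTA2. The downstream start site of ACTA2 had no box of the strict form, and whether its near-matches bind SRF was not tested. Stretches 1 letter off numbered 2 for ACTA2, beginning 121 and 71 bases before that start, 2 for ACTA1, at 224 and 178 bases, and 3 for ACTC1, at 237, 200 and 149 bases. The windows nearest the start that hold the boxes, or for ACTA2 the near-matches, are printed 5′ to 3′ on the gene's strand, with each box or near-match in capitals.
ACTA2, chr10:88952774-88952923, minus strand: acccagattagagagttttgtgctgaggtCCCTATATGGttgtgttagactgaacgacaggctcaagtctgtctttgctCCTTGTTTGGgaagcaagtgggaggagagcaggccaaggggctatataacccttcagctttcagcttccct
ACTA1, chr1:229434095-229434244, minus strand: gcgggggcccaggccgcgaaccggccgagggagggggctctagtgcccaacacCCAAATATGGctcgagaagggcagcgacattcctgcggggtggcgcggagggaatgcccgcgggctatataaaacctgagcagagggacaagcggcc
ACTC1, chr15:34795550-34795699, minus strand: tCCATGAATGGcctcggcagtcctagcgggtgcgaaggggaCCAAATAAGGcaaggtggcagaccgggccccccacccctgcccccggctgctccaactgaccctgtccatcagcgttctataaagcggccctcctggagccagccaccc
A CArG box stood in 1.29% of all 35116 promoters of this length, and a box or a stretch 1 letter off in 8.13%. These are letter matches in a window, and the windows of the remaining 5 members searched held neither form.

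The 10 genes did not move as a set. A gene was called raised or lowered where the difference on the log2(FPKM + 1) scale had an adjusted p under 0.05 and was at least 2-fold, in 1 limma fit over all 14840 genes that reached 1 FPKM in at least 3 libraries. All 10 members passed that filter. From H1 to APLNR+ cells, ACTC1, TAGLN, MYL9 and CNN1 rose and no member fell, so that 4 of 10 were raised where 8.3% of all genes were, and 0 of 10 lowered where 7.62% were. From APLNR+ to CD31+CD34+ cells, 1 member rose (ACTA2; 12.5% of all genes) and 2 fell (ACTA1 and TPM1; 17.1% of all genes), counts that stand close to the background. From CD31+CD34+ to CD43+ cells, 6 members fell, namely ACTC1, TAGLN, CNN1, TPM1, MYL9 and MYH10, where 8.79% of all genes did, and ACTA2 alone of the 10 was raised, where 5.58% of all genes were.

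Across the whole course, CD43+ cells against H1, 2 members were raised (ACTA2 and MYH9; 14.6% of all genes) and 5 were lowered (ACTA1, TAGLN, CNN1, TPM1 and MYH10; 22.5% of all genes). The median log2 change of the 10 members was 0.59 at the first step, -0.40 at the second and -1.14 at the third, beside -0.12, -0.01 and -0.00 over all genes. The count of lowered members at the second step depended on the scaling: it was 4 after quantile normalization, which added TAGLN and MYH10, and 1 among genes with a mean of at least 5 FPKM, a filter that ACTA1 does not pass. Quantile normalization also moved the all-gene median of CD43+ cells against H1 from -0.10 to 0.02.

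**Figure D1:**
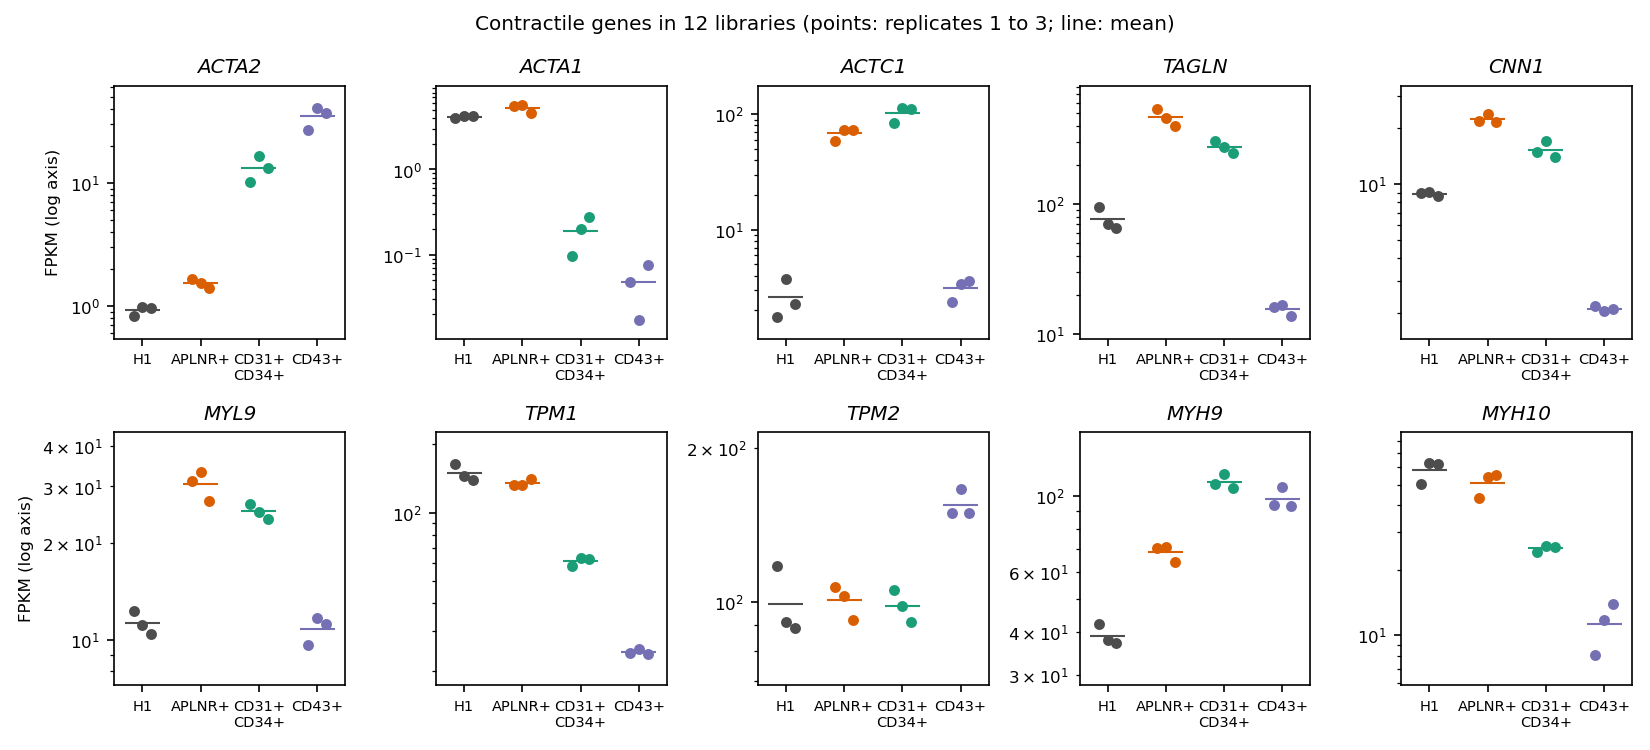
FPKM on a log axis for each of the 10 genes in each of the 12 libraries; points are the 3 libraries of a population and the line is their mean. ACTA2 climbs to a mean of 34.8 in CD43+ cells, ACTC1 and TAGLN peak in the middle populations, and ACTA1 and TPM1 drop from H1 to CD43+ cells.

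ACTA2, the alpha actin of smooth muscle and of myofibroblasts, rose late and was highest in the blood progenitors. It stood at 0.826, 0.980 and 0.961 FPKM in H1 libraries 1 to 3 and at 1.65, 1.53 and 1.40 in APLNR+ libraries. In CD31+CD34+ libraries it read 10.2, 16.5 and 13.3 FPKM, and in CD43+ libraries 27.1, 40.5 and 36.8. No library of one population overlapped any of another, and the spread within the later 2 populations was wide. The first step, 0.39 ± 0.17 (SE, log2), did not pass the test (limma, adjusted p = 0.062). It stayed under 2-fold in every alternative, but its size and p depended on the settings, with 0.67 log2 and an adjusted p of 0.00916 at a pseudocount of 0.1, and adjusted p from 0.00395 to 0.142 over all alternatives. The second was 8.74-fold between means (2.48 ± 0.17 log2, adjusted p = 7.73e-08) and the third 2.61-fold (1.32 ± 0.17 log2, adjusted p = 3.51e-05). CD43+ cells held 37.7 times the mean level of H1 cells (adjusted p = 4.05e-10). FAS, a death receptor gene whose exons overlap ACTA2 on the opposite strand, averaged 1.26, 0.867, 0.997 and 1.59 FPKM in H1, APLNR+, CD31+CD34+ and CD43+ cells, and ACTA2-AS1 at most 0.142. Whether the counting used strand is not stated, so reads over the shared exons cannot be assigned.

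ACTA1, the skeletal muscle actin, was present at a low level in stem cells and mesoderm and nearly absent afterwards. Its values were 3.99, 4.19 and 4.19 FPKM in H1 and 5.60, 5.71 and 4.64 in APLNR+ libraries, a difference of 0.30 ± 0.09 log2 that lay under the 2-fold limit (adjusted p = 0.017). In CD31+CD34+ libraries the level was 0.0972, 0.198 and 0.274 FPKM, and in CD43+ libraries 0.0481, 0.0173 and 0.0764. The early and the late populations were thus far apart, with every late library under 0.3 FPKM. The mean fell 28.0-fold between APLNR+ and CD31+CD34+ cells, and the log2(FPKM + 1) difference, too small a measure for a gene near 0, was -2.41 ± 0.09 (adjusted p = 8.37e-10). At the third step the mean was 4.02-fold lower again with no overlap of libraries, and the log2(FPKM + 1) difference of -0.18 ± 0.09 did not pass (adjusted p = 0.124). A pseudocount of 0.1 gave -0.95 log2 (adjusted p = 0.00552), still under 2-fold, and the adjusted p ran from 0.00552 to 0.343 over the alternatives.

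ACTC1, the cardiac actin and the main actin of the embryonic heart, was high in the middle 2 populations only. H1 libraries held 1.76, 3.75 and 2.29 FPKM, and APLNR+ libraries 59.0, 73.5 and 73.0. CD31+CD34+ libraries held 84.3, 114 and 112 FPKM, and CD43+ libraries 2.36, 3.40 and 3.61. The first and last populations overlapped, and the middle ones lay above both in every library. The mean was 26.4-fold higher in APLNR+ than in H1 cells (4.30 ± 0.20 log2, adjusted p = 3.61e-09) and 33.1-fold lower in CD43+ than in CD31+CD34+ cells (-4.66 ± 0.20 log2, adjusted p = 3.01e-09). Between the middle populations the difference of 0.58 ± 0.20 log2 was under 2-fold (adjusted p = 0.0198), and its adjusted p ran from 0.000523 to 0.0879 over the alternatives. H1 and CD43+ cells differed by 0.22 log2 (adjusted p = 0.33), with an interval of 2 SE either side that ran from -0.18 to 0.62.

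TAGLN encodes transgelin (SM22), an actin-binding protein that is among the earliest smooth muscle markers and is also made by many embryonic and stromal cells. It was the most abundant member in APLNR+ and CD31+CD34+ cells. H1 libraries held 94.3, 69.8 and 65.0 FPKM, APLNR+ libraries 538, 459 and 399, CD31+CD34+ libraries 305, 272 and 246, and CD43+ libraries 16.2, 16.9 and 13.9. The order of the 4 populations was the same whichever libraries were set against each other. TAGLN rose 6.10-fold at the first step (2.60 ± 0.15 log2, adjusted p = 3.09e-08) and fell 17.5-fold at the third (-4.04 ± 0.15 log2, adjusted p = 1.14e-09). The second step, -0.76 ± 0.15 log2, was under the 2-fold limit (adjusted p = 0.000725), and CD43+ cells ended below H1 (-2.20 log2, adjusted p = 5.53e-08). PCSK7, which overlaps TAGLN exons on the opposite strand, averaged 10.6, 16.9, 19.0 and 14.8 FPKM over the 4 populations in order. In CD43+ cells its level was therefore near that of TAGLN itself.

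CNN1 (calponin 1), which restrains the ATPase of actin-bound myosin, took the same order at a lower level. Its H1 libraries read 8.90, 9.11 and 8.58 FPKM, APLNR+ 21.9, 24.0 and 21.5, CD31+CD34+ 14.9, 17.1 and 14.1, and CD43+ 2.17, 2.06 and 2.10. None of the 4 groups overlapped. The first step was a 2.54-fold increase (1.25 ± 0.09 log2, adjusted p = 2.04e-07) and the third a 7.27-fold decrease (-2.39 ± 0.09 log2, adjusted p = 1.12e-09), while the second, -0.52 log2, was under 2-fold (adjusted p = 0.00021).

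MYL9, a regulatory light chain of smooth and non-muscle myosin II, ended at a level that could not be told from its start. It read 12.3, 11.1 and 10.4 FPKM in H1, then 31.1, 33.2 and 27.0 in APLNR+, next 26.5, 25.0 and 23.8 in CD31+CD34+, and at last 9.62, 11.7 and 11.2 in CD43+ libraries. Only the H1 and CD43+ libraries overlapped. MYL9 rose 2.70-fold at the first step (1.36 ± 0.10 log2, adjusted p = 3.95e-07) and fell 2.32-fold at the third (-1.14 ± 0.10 log2, adjusted p = 2.15e-06). The second step of -0.27 log2 was under 2-fold (adjusted p = 0.0371), and its adjusted p ran from 0.00354 to 0.146 over the alternatives. CD43+ and H1 cells differed by -0.05 log2 (adjusted p = 0.655), a difference whose sign turned under both other scalings, with an interval of 2 SE either side from -0.26 to 0.16.

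TPM1 and TPM2 encode tropomyosins, coiled rods that lie along actin filaments and gate the access of myosin. They parted from one another. TPM1 held 164, 145 and 139.7 FPKM in H1 and 133, 133 and 141 in APLNR+ libraries, but 58.2, 62.9 and 62.6 in CD31+CD34+ and 24.0, 25.2 and 23.9 in CD43+ libraries. The H1 and APLNR+ libraries overlapped, and below them each population was separate. TPM1 fell 2.21-fold at the second step (-1.13 ± 0.08 log2, adjusted p = 1.25e-07) and 2.51-fold at the third (-1.29 ± 0.08 log2, adjusted p = 7.53e-08). The first step of -0.14 log2 did not pass (adjusted p = 0.168) and had the other sign after quantile normalization.

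TPM2 was highest in the last population and overlapped between the others. Its values were 117, 91.3 and 88.6 FPKM in H1, 107, 103 and 92.0 in APLNR+, and 105, 98.2 and 91.2 in CD31+CD34+ libraries. The CD43+ libraries, at 149, 166 and 149, lay above all of these. The third step of 0.65 ± 0.11 log2 had an adjusted p of 0.000482 and stayed under 2-fold, so it was not called. H1 against APLNR+ and APLNR+ against CD31+CD34+ cells differed by 0.03 and -0.03 log2 (adjusted p = 0.848 and 0.802), differences whose sign depended on single libraries. TPM1 has 34 annotated transcripts and TPM2 has 12, counted whether or not they code for protein. They were not sorted into muscle and non-muscle kinds. Expression was given as 1 summed level per gene, so a switch of isoform would not be seen.

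MYH9 and MYH10 encode the heavy chains of non-muscle myosin IIA and IIB, the motors of cell division, migration and cortical tension, and they moved in opposite directions. MYH9 read 42.1, 37.9 and 37.0 FPKM in H1, then 70.2, 70.6 and 64.1 in APLNR+ libraries, whereas CD31+CD34+ libraries read 108, 116 and 106 and CD43+ libraries 94.0, 106 and 93.5. The last 2 populations overlapped and stood above the first 2. Neither of the first 2 steps reached 2-fold (0.79 ± 0.09 log2, adjusted p = 8.17e-06, and 0.68 log2, adjusted p = 1.75e-05), and after quantile normalization the first did, at 1.03 log2. The last step of -0.17 log2 did not pass (adjusted p = 0.118). Over the whole course MYH9 was 2.51-fold higher in CD43+ than in H1 cells (1.30 ± 0.09 log2, adjusted p = 3.63e-08).

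MYH10 went the other way, from 50.2, 63.0 and 62.4 FPKM in H1 and 43.4, 54.5 and 55.2 in APLNR+ to 24.2, 25.9 and 25.7 in CD31+CD34+ and 8.13, 11.7 and 13.9 in CD43+ libraries. H1 and APLNR+ overlapped, with a difference of -0.19 ± 0.16 log2 that did not pass (adjusted p = 0.337) and that turned to 0.01 after quantile normalization. The second step, -0.98 ± 0.16 log2, lay just under the 2-fold limit (adjusted p = 0.000186), and passed it without APLNR+ replicate 1 (-1.09), with replicates 2 and 3 alone (-1.06), after quantile normalization (-1.16) and, barely, with upper-quartile scaling or a pseudocount of 0.1. The third, -1.13 ± 0.16 log2, was just over it (adjusted p = 0.00011). That last call rested on CD43+ replicate 1, the shallowest CD43+ library: without it the change was -0.93 log2, and with replicates 2 and 3 alone -0.96. MYH10 was lowered over the whole course (-2.30 log2, adjusted p = 7.57e-08). NDEL1, a dynein partner whose exons overlap MYH10 on the opposite strand, averaged 10.5, 23.2, 19.6 and 12.8 FPKM in the 4 populations, and in CD43+ cells thus stood at the level of MYH10.

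**Figure D2:**
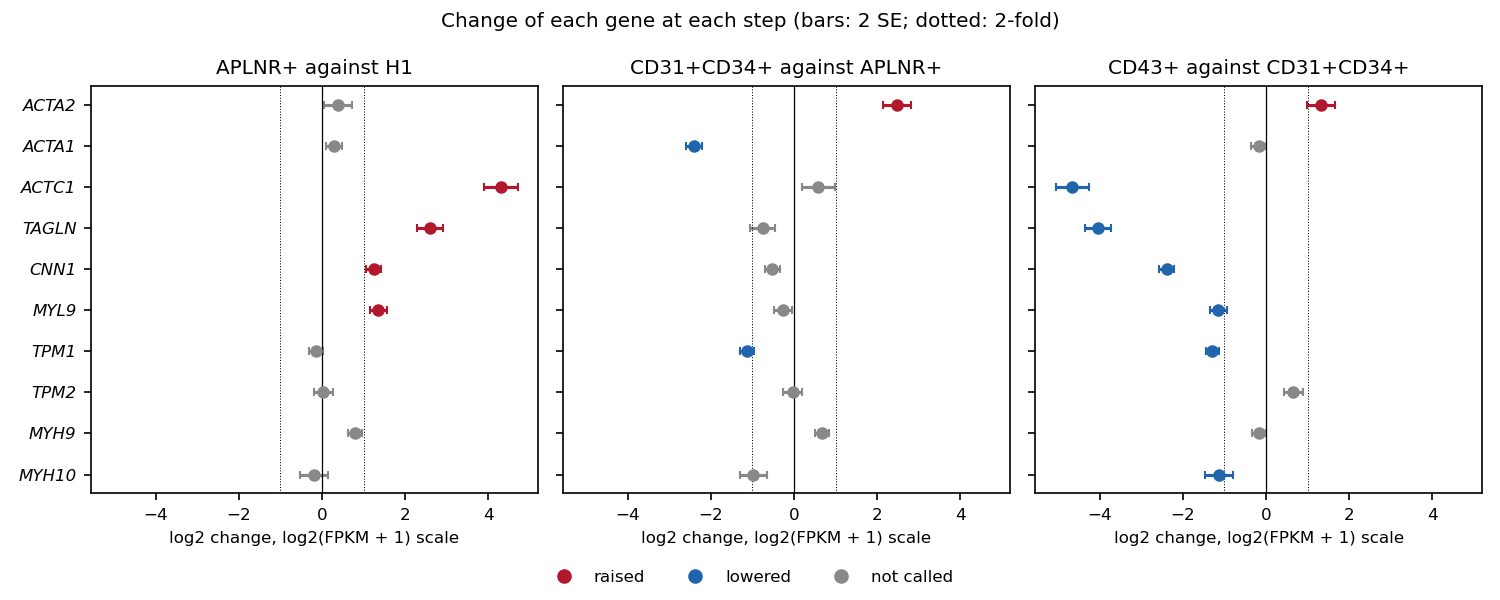
Difference of each gene between consecutive populations on the log2(FPKM + 1) scale (x axis), with bars of 2 SE; colour gives the call and dotted lines mark 2-fold. ACTC1 moves by 4.30 at the first step and by -4.66 at the third, and ACTA2 is the 1 gene raised at the later 2 steps.

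Ratios of related genes within a library do not depend on any factor that scales a whole library. MYH10 to MYH9 was 1.19, 1.66 and 1.69 in H1 libraries, 0.618, 0.771 and 0.862 in APLNR+ libraries, 0.224, 0.223 and 0.243 in CD31+CD34+ libraries, and 0.0865, 0.111 and 0.149 in CD43+ libraries. The balance therefore passed from an excess of MYH10 to an excess of MYH9, with no overlap at any step. TPM2 to TPM1 averaged 0.660 ± 0.0486, 0.743 ± 0.0803, 1.61 ± 0.180 and 6.33 ± 0.226 from H1 to CD43+ cells (SD, n = 3). Here the first 2 populations overlapped and each later one was separate. CNN1 to TAGLN was lowest in the middle, at 0.119 ± 0.0213, 0.0490 ± 0.00728, 0.0563 ± 0.00709 and 0.136 ± 0.0145 in the same order, so that TAGLN gained on CNN1 at the first step and lost again at the third. With 3 libraries against 3, an exact 2-sided permutation test cannot go below p = 0.1, a value that 7 of the 9 ratio steps reached (0.129 after Benjamini-Hochberg adjustment over the 9). The exceptions were the first step of TPM2 to TPM1 (exact p = 0.2, adjusted 0.225) and the second of CNN1 to TAGLN (exact p = 0.4, adjusted 0.4).

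**Figure D3:**
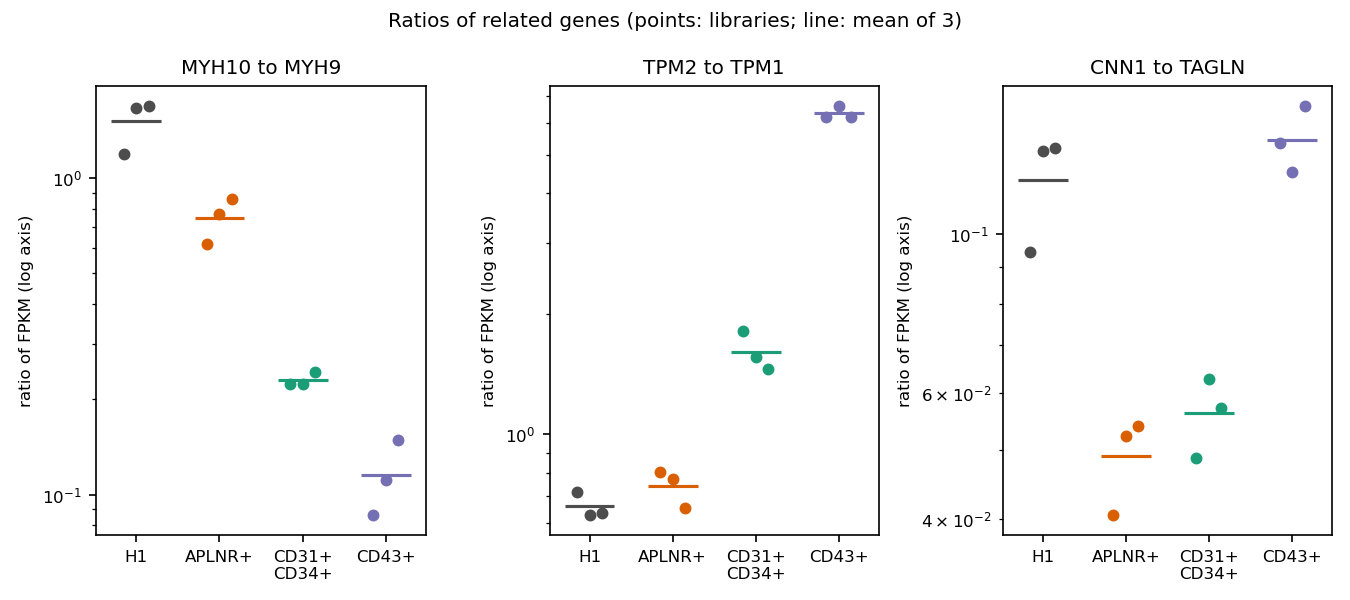
Ratios of FPKM within each library on log axes, with the mean of 3 libraries as a line. MYH10 to MYH9 goes from a mean of 1.51 in H1 to 0.115 in CD43+ cells, TPM2 to TPM1 from 0.660 to 6.33, and CNN1 to TAGLN is lowest in APLNR+ cells at 0.0490.

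The summed level of the 10 genes was 450.4 ± 40.3 FPKM in H1 cells, 949 ± 66.4 at day 2, 726 ± 28.3 at day 5 and 355 ± 26.1 at day 8 (SD, n = 3). Its make-up shifted with each population. TPM1 took 33.2% of the sum in H1 cells, ahead of TPM2 with 21.9% and TAGLN with 16.8%. TAGLN alone took 48.9% at day 2 and 37.7% at day 5, where MYH9 (15.1%) and ACTC1 (14.3%) followed. In CD43+ cells TPM2 took 43.6%, MYH9 27.6% and ACTA2 9.77%, while TAGLN was down to 4.43%.

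Other genes of the contractile machinery were taken from 5 lists, and their calls are to be read against the shares of all genes: 8.3% raised and 7.62% lowered at the first step, 12.5% and 17.1% at the second, and 5.58% and 8.79% at the third. Of 14 further smooth muscle genes, 12 passed the filter. At the first step 1 of them was raised and 1 lowered, at the second 4 and 2, and at the third 1 and 2. Their median log2 changes were 0.19, 0.62 and -0.52 at the 3 steps, beside the all-gene medians given above. TAGLN2, a broadly expressed transgelin, rose at the first step (1.99 ± 0.09 log2, adjusted p = 3.18e-09) and again at the second (1.48 ± 0.09, adjusted p = 3.6e-08). CSRP1, a LIM protein of the actin cytoskeleton, rose at the second step by 2.98 ± 0.10 log2 (adjusted p = 1.75e-10), as did SMTN, smoothelin, by 2.33 ± 0.13 (adjusted p = 1.54e-08). MYLK, the myosin light chain kinase, rose at the third step, where MYL9 fell (1.47 ± 0.14 log2, adjusted p = 4.1e-06). CALD1, caldesmon, was called lowered there (-1.31 ± 0.52 log2, adjusted p = 0.0489), but narrowly and with overlapping libraries. It read 18.6, 41.5 and 72.7 FPKM in CD31+CD34+ and 6.62, 23.8 and 20.1 in CD43+ libraries. MYH11, the defining myosin of mature smooth muscle, had a mean of at most 0.167 FPKM in any population and did not enter the test.

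Of 17 cardiac and striated sarcomere genes, 10 passed the filter, and 5 were raised and 1 lowered at the first step, 1 and 4 at the second, and 1 and 5 at the third, with medians of 0.63, -0.14 and -0.86. The atrial light chain MYL7 rose beside ACTC1 at the first step (5.62 ± 0.15 log2, adjusted p = 3.66e-11) and then fell, unlike ACTC1, already at the second (-2.17 ± 0.15, adjusted p = 1.11e-07) and further at the third (-4.23 ± 0.15, adjusted p = 8.5e-10). Its means were 1.22, 108, 23.1 and 0.292 FPKM. MYL4, the light chain of embryonic and atrial muscle, was raised at all 3 steps, with means of 0.130, 17.8, 53.9 and 268 FPKM. TNNC1, the troponin C of heart and slow muscle, fell at the third step (-3.52 ± 0.13 log2, adjusted p = 1.23e-09), and TNNI3, cardiac troponin I, fell at the first (-2.64 ± 0.19, adjusted p = 1.93e-07). The ventricular light chain MYL2 was listed at 0 in all 12 libraries, and the cardiac heavy chains MYH6 and MYH7 stayed at means of at most 0.390 and 0.0489 FPKM.

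All 15 non-muscle actomyosin genes passed the filter, with 1 raised at the first step, 3 raised and 1 lowered at the second, and 1 lowered at the third, with medians of 0.23, 0.34 and -0.25. TLN1, talin, which ties integrins to actin, rose by 1.06 ± 0.16 and 1.68 ± 0.16 log2 at the first 2 steps (adjusted p = 0.000115 and 1.3e-06). MYL6, the essential light chain that partners MYH9 and MYH10, rose at the second step (1.45 ± 0.13, adjusted p = 7.73e-07). ZYX, zyxin of focal adhesions, rose at the second step and fell at the third (1.35 ± 0.09 and -1.10 ± 0.09 log2, adjusted p = 6.11e-08 and 6.7e-07). The cytoplasmic actin ACTB averaged 551, 766, 1099 and 1089 FPKM, so the alpha actins were the minor actins in every population.

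Among 8 genes of contraction signalling, none was called at the first step, and 2 were raised and 4 lowered at the second. At the third step 1 was raised, namely MYLK, which is counted in the smooth muscle list too. The medians of the 8 genes were -0.06, -0.07 and -0.10. RHOA, a small GTPase that promotes contraction, rose at the second step (1.16 ± 0.09 log2, adjusted p = 3.12e-07), whereas the kinase ROCK2 and the myosin phosphatase subunit PPP1R12A fell there (-1.41 ± 0.17 and -1.31 ± 0.11 log2, adjusted p = 1e-05 and 7.31e-07). Of 7 genes for SRF and its cofactors, 2 were raised at the first step, 2 raised and 1 lowered at the second, and 2 lowered at the third, with medians of 0.25, -0.19 and -0.01. SRF itself averaged 8.13, 9.84, 12.9 and 11.9 FPKM. MYOCD, the muscle-restricted cofactor of SRF, averaged 0.348, 6.80, 3.76 and 0.0509 FPKM, an order shared with TAGLN and CNN1. MKL1, its broadly expressed relative, rose at the second step (1.02 ± 0.09 log2, adjusted p = 1.08e-06), and so did ELK1, a competing partner of SRF (1.06 ± 0.12, adjusted p = 4.61e-06). TEAD1, which binds muscle promoters through another element, rose by 2.09 ± 0.21 log2 and then fell at the later 2 steps (-2.09 and -1.54, adjusted p = 4.67e-06, 2.65e-06 and 6.93e-05).

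**Figure D4:**
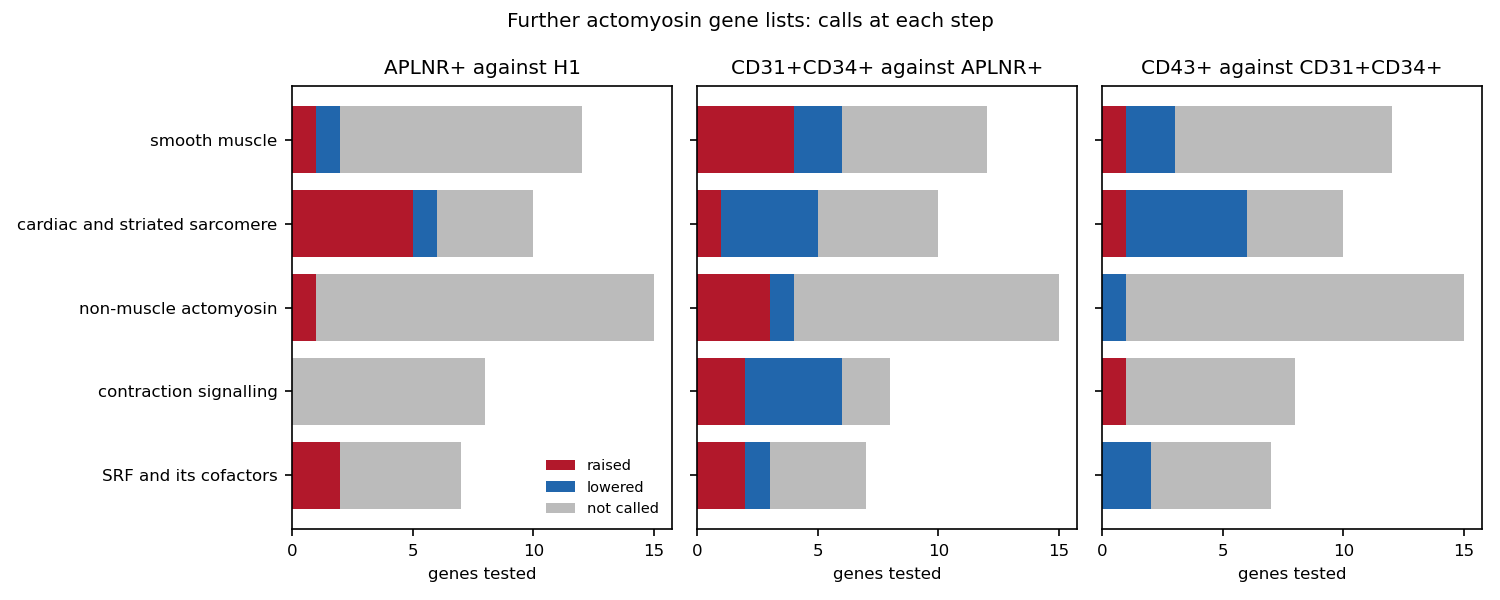
Number of genes raised, lowered or not called (x axis) at each step in 5 further lists of the contractile machinery. The sarcomere list has 5 raised genes at the first step and 5 lowered at the third, and the 15 non-muscle genes are mostly not called.

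Markers of other cell types were summed in the same libraries, each list holding 5 genes. Summed megakaryocyte and platelet markers lay between 1.74 and 15.1 FPKM in the first 3 populations and between 638 and 672 in CD43+ cells, where 5 of 5 markers averaged at least 1 FPKM and ITGA2B alone averaged 575. This sum was thus highest in the population in which ACTA2, TPM2 and MYLK were highest. That was not particular to this list: summed blood markers were highest there too, at 195 to 255 FPKM. In CD31+CD34+ libraries the blood markers summed to 31.1 to 36.2 FPKM, and they were lower still in the earlier populations. Summed smooth muscle markers were 4.67 to 5.86 FPKM in H1 libraries, 14.2 to 16.8 at day 2, 51.3 to 56.7 at day 5 and 38.2 to 47.5 at day 8, and most of the later sum was SMTN, at means of 45.6 and 40.8. The defining markers MYH11 and LMOD1 averaged at most 0.167 and 0.144 FPKM throughout. MYOCD was highest in APLNR+ cells (a mean of 6.80) and DES in CD31+CD34+ cells (5.08). The sum of mural markers was highest in CD31+CD34+ libraries, at 241 to 332 FPKM, and was mostly RGS5. NOTCH3 and CSPG4 were highest there too, at means of 25.7 and 3.60. PDGFRB, however, was highest in CD43+ cells (a mean of 17.5) and ABCC9 in APLNR+ cells (1.95). The cardiomyocyte sum was highest in APLNR+ libraries, at 97.4 to 129 FPKM, through MYL7 alone of its 5 genes. TNNT2 and TNNI3 were highest in H1 cells (means of 4.91 and 18.9), NKX2-5 in CD31+CD34+ cells (21.7) and MYH6 in CD43+ cells (0.390). Fibroblast markers summed to 335 to 377 FPKM in CD31+CD34+ libraries and to 120 to 131 in CD43+ libraries, with DCN at a mean of at most 0.0726, although COL3A1 was highest in CD43+ cells (44.2). The part of these cell types in the levels of the 10 genes was not tested.

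**Figure D5:**
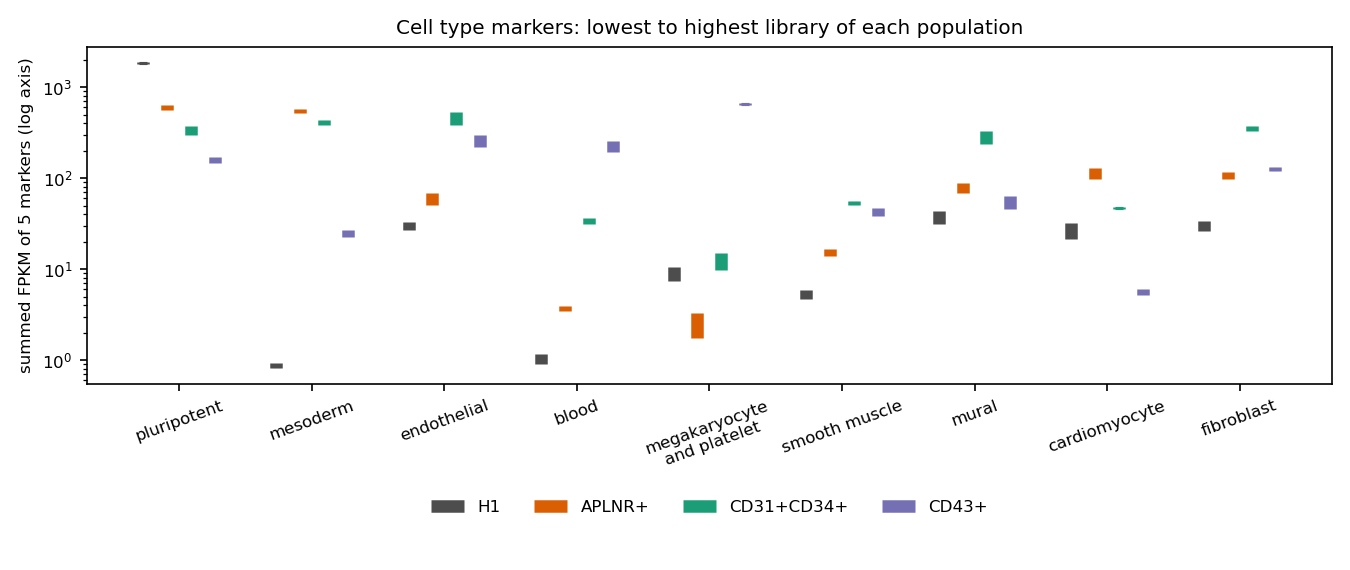
Summed FPKM of 5 markers of each cell type on a log axis; each bar runs from the lowest to the highest of the 3 libraries of a population. Megakaryocyte and platelet markers stand at 638 to 672 in CD43+ libraries, mostly through ITGA2B, and at most at 15.1 elsewhere. The cardiomyocyte sum, mostly MYL7 there, is highest in APLNR+ libraries.

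Genes with the most similar course were sought among 7718 genes with a population mean of at least 10 FPKM, by the root-mean-square difference of centred log2 values over the 12 libraries. The nearest to ACTA2 were TMEM40 (0.223), C2orf88 (0.249) and GIMAP5 (0.257), against a median of 1.79 over all genes compared. TMEM40 averaged 0.0304, 0.117, 4.63 and 13.6 FPKM, and GIMAP5 averaged 0.00531 in H1 and 15.6 in CD43+ cells. The pseudocount of 1 compresses levels this low, and the folds of TMEM40 and GIMAP5 from H1 were far larger than that of ACTA2. For ACTC1 the closest were the protease inhibitor gene SLPI (0.466), the matrix gene TNC (0.573) and SOX17 (0.602), a transcription factor of endoderm and haemogenic endothelium. SOX17 averaged 0.0624, 17.5, 24.2 and 1.40 FPKM. Among the 3 genes nearest to TAGLN were KCNG1 (0.453) and AMOTL2 (0.551), and CNN1 was nearest to L1CAM (0.134), SDC4 (0.154) and RASL12 (0.162). ACTC1 had no neighbour as close as those named for ACTA2 and CNN1.

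By this measure ACTA1 lay nearest to G2E3 (0.164), INPP5F (0.174) and SUCLA2 (0.174), but the pseudocount of 1 compresses a gene this low. G2E3 went from 19.4 to 3.08 FPKM at the second step, a far smaller fall than the 28.0-fold of ACTA1. MYL9 lay nearest to ACAT2 (0.178), VANGL2 (0.191) and SPTAN1 (0.194), and TPM1 to FAM169A (0.149), PSAT1 (0.159) and ARMCX2 (0.166). For TPM2 they were RPL3 (0.106), IP6K2 (0.107) and MRPL40 (0.120), with a median of 0.636 over all genes, since TPM2 itself varied little. MYH9 came closest to HIST1H3B (0.0642), FXR2 (0.105) and MTSS1L (0.114), and MYH10 to USP28 (0.178), UGDH (0.196) and IQGAP1 (0.200). Such likeness over 4 populations is a description of the course alone.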

How the data were processed

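The deposited values are FPKM, which the authors gave in 1 table with a line per gene symbol and a column per library, and columns were tied to samples through the titles. BWA, Bowtie and RSEM and the build hg19 are named in the submitters' processing notes, without versions or roles, and annotation, strand setting and scaling are not given in the sources used here. The FPKM are not counts, so no count model was run. A text line was left out, and 58365 entries remained. Where a symbol stood on more than 1 line, the line of highest mean was used; no member was affected.

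Values were taken as log2(FPKM + 1), a scale that understates the change of low genes. The 14840 genes with at least 1 FPKM in at least 3 of the 12 libraries entered a single fit over the 4 populations (limma 3.58.1 in R 4.3.3, eBayes with trend) with Benjamini-Hochberg adjustment within a comparison, and a call needed an adjusted p under 0.05 and a 2-fold change. Folds between means are ratios of mean FPKM. Ratios within a library were compared by an exact permutation test (numpy 2.4.6). Alternatives were quantile normalization, upper-quartile scaling, a filter at a mean of 5 FPKM or none, a pseudocount of 0.1, a replicate block, the 2 compared populations alone, eBayes without trend, replicates 2 and 3 alone, and each library left out in turn. Named genes were all 10 members, at most 3 called genes with a population mean of at least 10 FPKM per further list and step, and the 3 nearest genes by course, 1 of which is not reported here; other genes of the lists given by level alone (ACTB, SRF, MYOCD, MYH11, MYL2, MYH6 and MYH7), marker genes and overlapping genes were added for their role. The members and lists were chosen with earlier results of these data known. Coding and exon sequences came from GENCODE release 29 and promoters from RefSeq, which are on another build than the files, so no gene coordinates are given beyond the promoter windows.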

Additional observations from a re-analysis of the deposited data

How the results depend on the processing

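Of the counts of members raised or lowered in the 4 comparisons, 118 values under the alternatives stayed within 1.5 times the reported count and 2 did not: members lowered in CD31+CD34+ against APLNR+ cells numbered 1 with a mean of at least 5 FPKM, where ACTA1 is no longer tested, and 4 after quantile normalization, against 2. Leaving out single libraries left that count and the others within that limit. Of the log2 changes of single members, 575 kept direction and side of the call threshold (adjusted p and 2-fold together), 7 passed it, 2 no longer did and 12 turned sign, all of the latter in members that were not called. After quantile normalization TPM1 and MYH10 turned to 0.065 and 0.0127 in APLNR+ against H1 cells, and MYL9 to 0.105 in CD43+ against H1 cells. MYL9 also turned to 0.0484 under upper-quartile scaling and to 0.0819 with replicates 2 and 3 alone. With single libraries left out, it ran from -0.107 to 0.0217, TPM2 ran from -0.0449 to 0.156 in APLNR+ against H1 cells, and from -0.0958 to 0.0176 in CD31+CD34+ against APLNR+ cells. The causes were not tested. With the replicate block, members raised and lowered were 4 and 0, 1 and 2, 1 and 6, and 2 and 5, as without it, and the difference of MYH9 between CD43+ and CD31+CD34+ cells, which is under 2-fold, had an adjusted p of 0.0398 in place of 0.118. The labels do not say that a number marks a shared culture or batch, and not every same-numbered pair was correlated: deviations from the population means correlated at -0.0214 to 0.429 for the same number and at -0.404 to 0.289 for others, and 6 of 12 libraries correlated best with their own number. A batch shared by a number was not tested further. Absolute depth is unknown, and values under 0.3 FPKM, as of ACTA1 in the later populations, carry the most relative error.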
